A study of Mus musculus with 24 samples.

Results

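Adipsin, encoded by Cfd, and 4 genes that mark fat cells, Adipoq (adiponectin), Lep (leptin), Plin1 (perilipin 1) and Retn (resistin), were followed in mouse liver across 2 inbred strains and 2 diets. These 5 genes, of 53677 in the count matrix, were picked by symbol, with their levels in these same livers already known, so their levels are given as a description and carry no test. RNA was sequenced from 24 livers, 1 library per mouse. The strain 129S1/SvImJ gave 5 chow-fed and 6 high-fat-fed mice, and the strain C57BL/6J gave 6 chow-fed and 7 high-fat-fed mice. No transgene or deletion is named for any group, and the labels give no age, sex, diet composition or length of feeding. Library totals lay between 6707013 and 13124881 counts. The labelled tissue was checked on 8 hepatocyte genes (Alb, Ttr, Apoa1, Apob, Tat, Cps1, Cyp2e1 and Cyp3a11), all with counts in every group, whose summed level ran from 84607 to 117842 CPM, counts scaled to the same library total. In 2 libraries the 4 fat-cell markers together held 10 or more counts, namely C57BL/6J high-fat mouse 5 (77 counts) and mouse 1 of 129S1/SvImJ on chow (11 counts). Ratios of Cfd means, and marker means per kilobase, that rest on either library are given with and without it. For other genes this is done where stated.

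Adipsin is complement factor D, a serine protease that circulates in an active form and cuts factor B once factor B is bound to C3b, which starts the amplification loop of the alternative complement pathway. In mice it is made mainly by fat cells, along with the hormones adiponectin, leptin and resistin and with perilipin 1, the protein that coats the lipid droplet of fat cells and controls access of lipases. Hepatocytes make most of the other complement proteins, and hepatocytes loaded with fat are known to switch on several genes of fat cells, many of them targets of the nuclear receptor PPAR gamma.

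Cfd (ENSMUSG00000061780.6) lies on chromosome 10, 79890853 to 79892655 of mm10, on the plus strand, with 922 exon bases, and no other annotated gene overlaps it. Adipoq (ENSMUSG00000022878.5) lies on chromosome 16, 23146536 to 23158028, and Lep (ENSMUSG00000059201.12) on chromosome 6, 29060220 to 29073877. Retn (ENSMUSG00000012705.16) lies on chromosome 8, 3655770 to 3660110, and Plin1 (ENSMUSG00000030546.14) on chromosome 7, 79720218 to 79732903, the latter on the minus strand. The 250 bases that end just before the RefSeq start of 4 of the genes are shown, because Cfd reached levels in these livers that the other genes did not, and the windows set the promoter of Cfd beside those of genes with the same main site of expression. The windows come from RefSeq on GRCm38.p6, 5′ to 3′ on the plus strand, at chr10:79890603-79890852 for Cfd, chr16:23146286-23146535 for Adipoq, chr6:29059971-29060220 for Lep and chr8:3655520-3655769 for Retn. The entry of Plin1 overlaps the annotated gene and is not printed. Capitals mark matches to nuclear receptor half-sites or to the C/EBP core, searched on both strands. The half-sites searched were AGGTCA, its relative GGGTCA, the form AGTTCA and the form GGTTCA, and the core was TTGCNNAA.
Cfd promoter: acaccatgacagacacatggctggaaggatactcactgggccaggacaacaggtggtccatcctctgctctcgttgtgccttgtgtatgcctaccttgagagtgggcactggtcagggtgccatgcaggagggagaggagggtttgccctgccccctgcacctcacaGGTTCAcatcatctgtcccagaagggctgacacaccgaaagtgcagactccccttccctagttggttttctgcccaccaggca
Adipoq promoter: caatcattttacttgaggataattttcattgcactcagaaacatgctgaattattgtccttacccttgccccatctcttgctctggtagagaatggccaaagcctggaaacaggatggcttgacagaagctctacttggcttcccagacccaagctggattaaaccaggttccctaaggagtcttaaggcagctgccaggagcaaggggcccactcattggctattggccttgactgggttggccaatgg
Lep promoter: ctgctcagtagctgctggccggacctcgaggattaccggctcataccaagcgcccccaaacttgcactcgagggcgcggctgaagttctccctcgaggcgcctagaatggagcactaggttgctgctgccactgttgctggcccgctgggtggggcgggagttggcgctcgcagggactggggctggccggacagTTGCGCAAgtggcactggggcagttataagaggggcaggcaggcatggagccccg
Retn promoter: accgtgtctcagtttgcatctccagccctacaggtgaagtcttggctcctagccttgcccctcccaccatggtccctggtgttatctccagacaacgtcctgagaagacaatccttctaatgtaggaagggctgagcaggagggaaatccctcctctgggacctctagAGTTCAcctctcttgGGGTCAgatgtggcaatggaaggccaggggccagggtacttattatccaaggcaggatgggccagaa

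The Cfd window held 1 half-site, GGTTCA, from -83 to -78 counted from the start site, and no C/EBP core. The Retn window held AGTTCA from -82 to -77 and GGGTCA from -67 to -62. The Lep window held a C/EBP core from -55 to -48, which reads as a match on both strands, and the Adipoq window held none of these letters. TATAAA was searched too and was in none of the 4 windows. Of 32851 mouse promoter windows of the same length, 38.6% held at least 1 of the 4 half-sites, 8.85% held GGTTCA, 9.56% the C/EBP core and 12.4% TATAAA. The matches describe these letters only.

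In C57BL/6J on high-fat diet Cfd was at 41.1 CPM in the lowest mouse, 165.9 CPM at the median and 255.9 CPM in the highest. On chow the same strain had 0.101 CPM in the lowest mouse, 2.66 CPM at the median and 8.08 CPM in the highest. Every C57BL/6J mouse on high-fat diet was above every C57BL/6J mouse on chow. The high-fat mean was 147.1 ± 79.8 CPM (SD, n = 7) and the chow mean 3.53 ± 3.53 CPM (SD, n = 6), a ratio of 41.7, or 5.38 on the log2 scale. The ratio was 46.7 without mouse 5 and 62.3 between the group medians. Of the 14533 genes that passed the count filter, 1.78% were higher on high-fat diet in C57BL/6J with no overlap between the groups, and this contrast was among those on which Cfd was picked. In bulk liver RNA a change in the number of cells that hold a transcript and a change in its amount per cell cannot be told apart.

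In 129S1/SvImJ the gene stayed near the limit of detection on both diets. On chow the 5 libraries held 26, 1, 0, 2 and 0 Cfd counts, which is 3.21, 0.105, 0, 0.225 and 0 CPM. On high-fat diet the 6 libraries held 6 Cfd counts in all, with 0 CPM in the lowest, 0.044 CPM at the median and 0.232 CPM in the highest. A count of 0 in a library allows up to 3 counts, or 0.232 to 0.467 CPM in the 129S1/SvImJ libraries, for counting error only. The chow mean was 0.709 ± 1.404 CPM (SD, n = 5) and the high-fat mean 0.081 ± 0.100 CPM (SD, n = 6). In that strain 3.96% of the tested genes were higher on high-fat diet with no overlap between the groups, and Cfd overlapped. Mouse 1 on chow, which was also the 129S1/SvImJ library with the most fat-cell marker counts, held 26 of the 29 Cfd counts of its group. Without it the chow mean was 0.082 ± 0.107 CPM (SD, n = 4), and the ratio of high-fat to chow means moved from 0.114 to 0.983.

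Ordered by mean, Cfd was highest in C57BL/6J on high-fat diet, then C57BL/6J on chow, 129S1/SvImJ on chow and 129S1/SvImJ on high-fat diet. Only the first of these groups was separated from its neighbour. The C57BL/6J mice on chow (0.101 to 8.08 CPM) overlapped the 129S1/SvImJ mice on chow (0 to 3.21 CPM), and the ratio of their means was 4.98 with all libraries and 42.8 without mouse 1 of 129S1/SvImJ on chow. All 6 C57BL/6J chow libraries held Cfd counts (8, 72, 1, 55, 104 and 7), against 3 of 5 in 129S1/SvImJ on chow and 3 of 6 on high-fat diet. The mouse identifiers carry a number, whose meaning the labels do not give. In C57BL/6J on high-fat diet, the 4 mice with number 1 had 150.4 to 255.9 CPM of Cfd, and the 3 with number 16 had 41.1, 41.3 and 199.4 CPM. On chow the mice with number 58 had 0.101 to 7.08 CPM and those with number 61 had 0.592 to 8.08 CPM, so the high-fat mice of either number were above all chow mice.

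**Figure D1:**
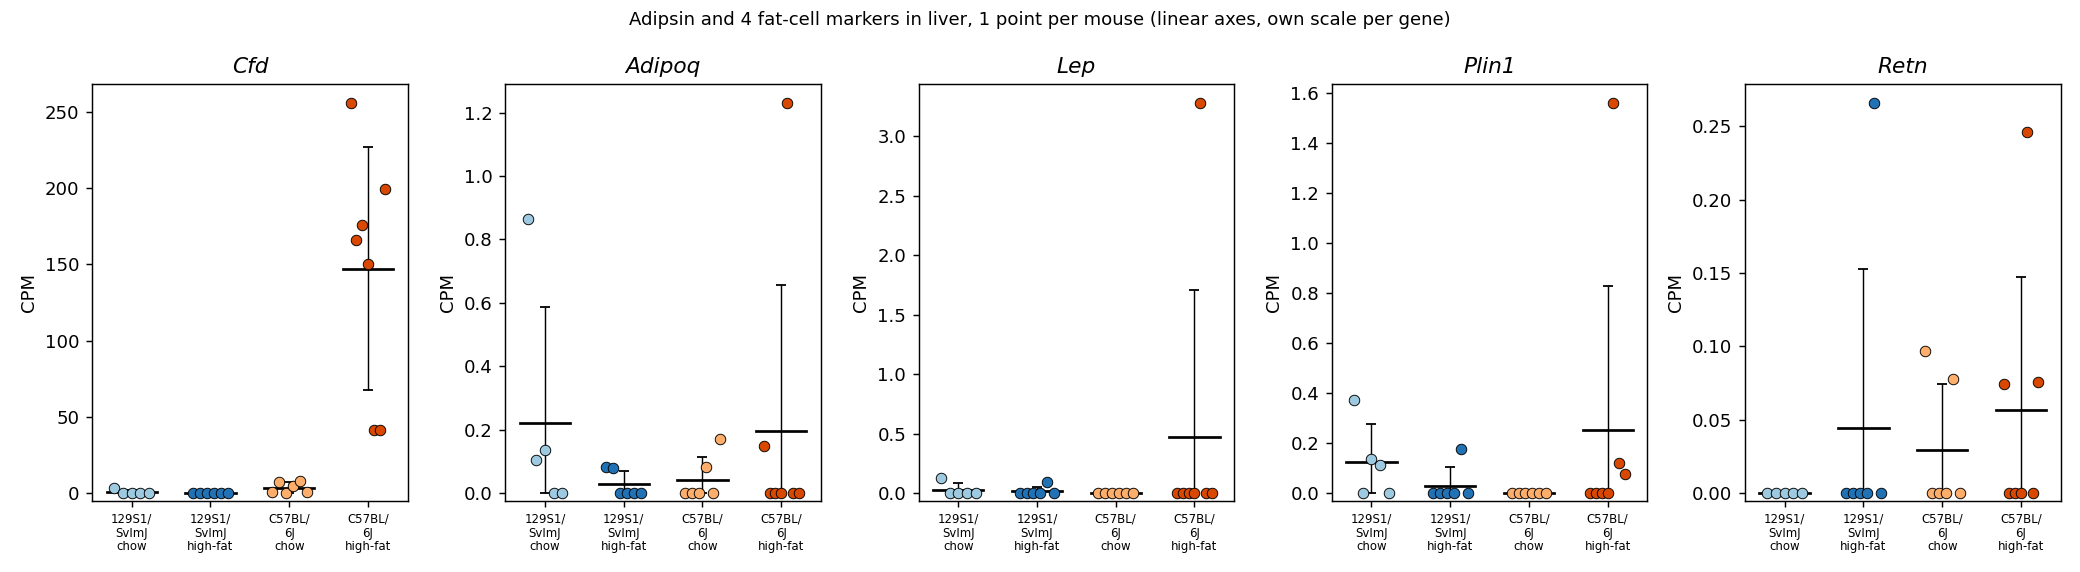
Levels of Cfd and the 4 fat-cell markers in each liver, in CPM on linear axes with a separate scale for each gene, grouped by strain and diet. Points are mice, horizontal lines are group means and vertical bars are SD, drawn down to 0 where the SD is larger than the mean. Cfd ran from 41.1 to 255.9 CPM in the 7 C57BL/6J mice on high-fat diet, while each marker had its group's highest value there in a single mouse.

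The 4 fat-cell markers were at or near 0 in nearly all livers, and none of them passed the filter on low counts, which 1 of the 5 genes, Cfd, did. Over all 24 libraries Cfd held 12258 counts, Lep 42, Adipoq 31, Plin1 28 and Retn 10. In C57BL/6J on high-fat diet the 7 libraries held 11976 Cfd counts and 83 counts of the 4 markers together. In C57BL/6J on chow they held 247 and 5, in 129S1/SvImJ on chow 29 and 15, and in 129S1/SvImJ on high-fat diet 6 and 8. Per kilobase of exon, the mean level in C57BL/6J on high-fat diet was 159.6 CPM for Cfd, 0.143 CPM for Adipoq, 0.140 CPM for Lep, 0.054 CPM for Plin1 and 0.036 CPM for Retn. Most of the marker level came from 1 library, mouse 5: without it the means per kilobase were 178.7 CPM for Cfd, 0.018 CPM for Adipoq, 0.0070 CPM for Plin1 and 0.016 CPM for Retn, and Lep had 0 counts in the other 6 mice.

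Adiponectin, the most abundant hormone of fat cells, had counts in 9 of the 24 libraries. Adipoq reached 1.23 CPM (15 counts) in mouse 5 of C57BL/6J on high-fat diet, 0.866 CPM (7 counts) in mouse 1 of 129S1/SvImJ on chow, and at most 2 counts elsewhere. Leptin, the satiety hormone whose plasma level follows fat mass, had counts in 3 libraries. Lep reached 3.28 CPM (40 counts) in the same C57BL/6J mouse 5 and 1 count in each of mouse 1 of 129S1/SvImJ on chow and mouse 5 of 129S1/SvImJ on high-fat diet. Perilipin 1 had counts in 7 libraries, with 1.56 CPM (19 counts) in C57BL/6J mouse 5 and at most 3 counts elsewhere. Resistin, a hormone made by fat cells in mice, had counts in 6 libraries and never more than 3 counts. Thus 3 markers had their highest level of all 24 livers in C57BL/6J mouse 5 on high-fat diet, and Retn was at 0.246 CPM there against 0.266 CPM in mouse 5 of 129S1/SvImJ on high-fat diet.

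Set against each other within a library, Cfd and the markers did not rise together among the C57BL/6J mice on high-fat diet. Mice 2, 3 and 4 of that group held no count of any of the 4 markers and 165.9, 175.7 and 150.4 CPM of Cfd. A marker share of 0 in these libraries allows up to 0.226%, 0.213% and 0.219% of the summed Cfd and marker counts (exact binomial interval, 95%, counting error only). Mouse 1, with the most Cfd (3440 counts), held 3 marker counts, and mouse 7, with 2639 Cfd counts, held 2. Mouse 5 was alone in the group with a marker level above the floor of 3 counts, 6.31 CPM summed, and it was sixth of 7 in Cfd, at 41.3 CPM. In mouse 5 there were 6.55 Cfd counts per marker count, and the markers made up 13.3% of the summed counts (95% exact binomial interval 10.6 to 16.3%). In mouse 6, which had the lowest Cfd (41.1 CPM), there were 347 Cfd counts and 1 marker count.

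The other library with over 10 marker counts was of the other strain. Mouse 1 of 129S1/SvImJ on chow held 26 Cfd and 11 marker counts, a ratio of 2.36, and the markers made up 29.7% of the sum (95% exact binomial interval 15.9 to 47.0%). Mouse 5 of 129S1/SvImJ on high-fat diet held 6 marker counts, 1 Lep, 2 Plin1 and 3 Retn, and 1 Cfd count. In C57BL/6J on chow, mouse 2 held 72 Cfd counts and no marker count, mouse 4 held 55 and 1, and mouse 5 held 104 and 1. Mice 1 and 6 of that group held 8 and 7 Cfd counts beside 1 and 2 marker counts, and mouse 3 held 1 Cfd count and no marker count. The marker share could be up to 4.99%, 9.55% and 5.19% in mice 2, 4 and 5 (exact binomial interval, 95%). In mice 1, 3 and 6 the counts were too few to bound it closely (up to 48.2%, 97.5% and 60.0%). Cfd above 1 count was therefore found without marker counts in high-fat C57BL/6J mice 2, 3 and 4. On chow this held for mouse 2, at a lower level.

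**Figure D2:**
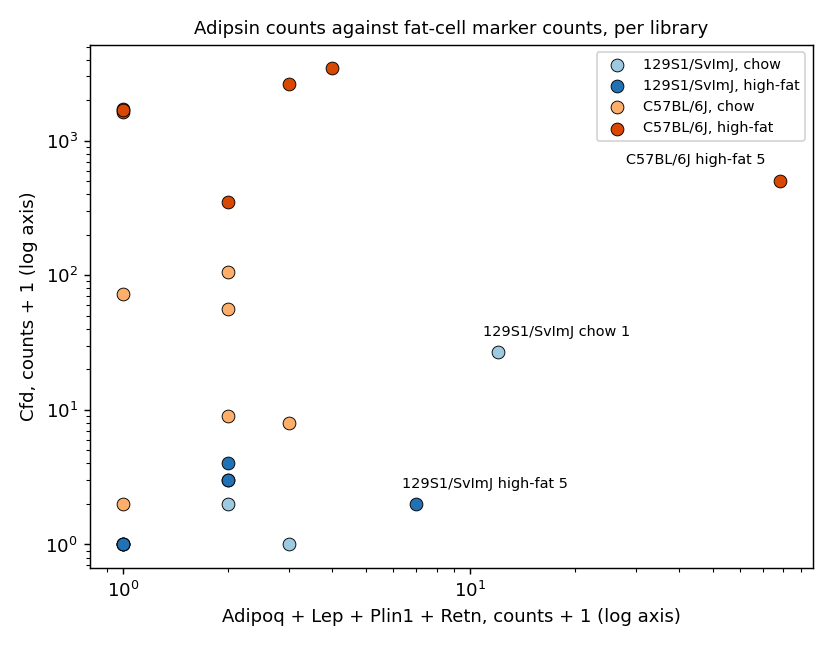
Cfd counts against the summed counts of Adipoq, Lep, Plin1 and Retn, each with 1 added, on log axes, with 1 point per library coloured by strain and diet; libraries with equal counts lie on top of each other. Of the 7 C57BL/6J high-fat libraries, 6 lie at the left with 0 to 3 marker counts and 347 to 3440 Cfd counts, and mouse 5 lies far to the right with 77 marker and 504 Cfd counts.

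A longer list of 10 fat-cell markers (the 4 above with Adig, Trarg1, Acvr1c, Adrb3, Mrap and Hcar1) was dominated by 2 of its genes. Adrb3, the beta-3 adrenergic receptor, and Mrap, an accessory protein of melanocortin receptors, together held 17.2 to 45.3 CPM in every library. The other 8 genes, set apart after the values were seen, summed to 0.626 CPM in the lowest C57BL/6J mouse on high-fat diet, 1.22 CPM at the median and 8.20 CPM in the highest, which was mouse 5, with counts of all 8. On chow the C57BL/6J mice had 1.06, 1.24 and 1.67 CPM by the same measure. In 129S1/SvImJ the range was 0.394 to 2.35 CPM on chow and 0.467 to 1.68 CPM on high-fat diet. Apart from mouse 5, no C57BL/6J mouse on high-fat diet was above 1.81 CPM. Of the 100 counts in mouse 5, 77 were of Adipoq, Lep, Plin1 and Retn. The 4 added genes alone (Adig, Trarg1, Acvr1c and Hcar1) summed to 1.89 CPM there and 1.66 CPM in mouse 7. Their highest sums on chow were 1.67 CPM in C57BL/6J and 1.75 CPM in 129S1/SvImJ, so they did not set mouse 5 clearly apart.

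Markers of other cells that fat or blood could bring into a liver sample were read in the same libraries. Ucp1, the uncoupling protein that defines brown fat cells, had 1 count in 1 of the 24 libraries, a C57BL/6J mouse on chow. Other brown fat markers on the list differed from it. In C57BL/6J, Elovl3 had means of 176.5 CPM on chow and 80.9 CPM on high-fat diet. Cox7a1 had means of 0.545 and 0.482 CPM, and Cidea of 0.068 and 17.8 CPM. Summed over 4 markers of the stromal progenitors of fat (Pdgfra, Dpp4, Pi16 and Dpt), C57BL/6J livers had 184.0 to 209.9 CPM on chow and 169.2 to 202.1 CPM on high-fat diet. Dpp4 dominated this sum, with means of 178.2 CPM on chow and 167.3 CPM on high-fat diet. Pdgfra had means of 15.1 and 14.7 CPM, and Dpt of 3.79 and 5.72 CPM. Pdgfra (23.4 CPM) and Dpt (10.33 CPM) were each highest of all 24 livers in mouse 5 of C57BL/6J on high-fat diet, while Dpp4 (246.3 CPM) and Pi16 (0.742 CPM) were highest in 129S1/SvImJ on chow. Summed over 7 macrophage markers, C57BL/6J livers had 248.2 to 400.7 CPM on chow and 262.6 to 612.3 CPM on high-fat diet, and none of the 6 that could be tested was called by edgeR or DESeq2 (1 had an unadjusted p under 0.05). Over 10 neutrophil markers the range was 3.11 to 5.01 CPM on chow and 2.32 to 8.23 CPM on high-fat diet. The hepatocyte markers summed to 109881 to 117842 CPM on chow and 84607 to 101436 CPM on high-fat diet in C57BL/6J, without overlap. The part of these cell types in the Cfd level was not tested.

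Genes beyond the 5 were then tested for the effect of diet in each strain and for the difference between these effects (129S1/SvImJ minus C57BL/6J), with edgeR's quasi-likelihood test and Benjamini-Hochberg adjustment over 14533 genes. Calls were made at adjusted p-values under 0.05. High-fat diet changed 14.9% of genes in C57BL/6J, with 7.66% higher and 7.20% lower, and 10.4% in 129S1/SvImJ, with 5.41% higher and 5.01% lower. The difference between the strains was called for 0.296% of genes. The median log2 fold change over all genes was 0.007 in C57BL/6J and -0.004 in 129S1/SvImJ.

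Among 14 further genes of fat cells, 4 passed the count filter, and 2 of these rose in C57BL/6J with none falling (median log2 fold change 0.13). Beside this, 7.66% of all tested genes rose and 7.20% fell in that strain. Lipe, hormone-sensitive lipase, which fat cells use to release fatty acids, had a mean of 29.4 ± 1.25 CPM (SD, n = 6) on chow and rose to 49.0 ± 9.56 CPM (SD, n = 7), without overlap between the groups. Its log2 fold change was 0.74 ± 0.12 (SE, edgeR adjusted p = 1.75e-04). Pde3b, the phosphodiesterase through which insulin restrains lipolysis, rose by 0.23 ± 0.07 (SE, edgeR adjusted p = 0.0351), a call held in 17 of the 24 fits that each leave out 1 library. Adrb3 (log2 fold change -0.49, edgeR adjusted p = 0.340) and Mrap (0.04, edgeR adjusted p = 0.887) did not pass. In 129S1/SvImJ Pde3b alone of the 4 was called, at 0.55 ± 0.08 (SE, edgeR adjusted p = 7.6e-05), and Lipe had 0.23 (edgeR adjusted p = 0.315). Of the 10 that were not tested, Aqp7, the glycerol channel of fat cells, is named after its values were seen. It had 75 counts in C57BL/6J on high-fat diet, with 5, 17, 1, 0, 35, 1 and 16 counts in mice 1 to 7 (median 0.372 CPM), against 2 counts over the C57BL/6J chow libraries, 1 in 129S1/SvImJ on high-fat diet and 0 on chow. Mouse 5 was highest in Aqp7, at 2.87 CPM, mice 2 and 7 had 1.73 and 1.21 CPM, and no mouse of the other groups was above 0.098 CPM.

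The list of genes that fat cells share with fat-loaded hepatocytes was read in the same fits. All 14 of this list were tested. In C57BL/6J 8 rose and none fell (median log2 fold change 1.14), beside 7.66% and 7.20% of all tested genes. In 129S1/SvImJ 4 rose and none fell (median 0.46), beside 5.41% and 5.01% of all tested genes. Of the 8, Cidea and Mogat1 passed the filter on low counts only through the C57BL/6J mice on high-fat diet. Without Cidea 7 of 13 rose, with a median of 1.13, and Mogat1 is still among these 7. Cidec, which fuses lipid droplets into larger ones, was at 3.34 to 7.17 CPM in C57BL/6J on chow and 14.7 to 208.0 CPM on high-fat diet. These groups did not overlap, and the log2 fold change was 4.06 ± 0.51 (SE, edgeR adjusted p = 2.64e-05). Cd36, a fatty acid receptor, went from 38.2 to 60.9 CPM on chow to 83.0 to 373.4 CPM on high-fat diet, again without overlap, a log2 fold change of 2.09 ± 0.26 (SE, edgeR adjusted p = 2.54e-05). Without the 2 libraries with fat-cell transcripts the log2 fold change was 3.71 for Cidec and 1.88 for Cd36. Mogat1, which makes diacylglycerol from monoacylglycerol, was at 0.098 to 0.699 CPM on chow and 0.237 to 6.89 CPM on high-fat diet, with overlap. Since its high group alone brought it through the filter, its fold change is not given. Agpat2, an enzyme of phosphatidic acid synthesis, rose by 0.62 ± 0.10 (SE, edgeR adjusted p = 2.22e-04).

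The other 4 that rose in C57BL/6J, named after their values were seen, were Cidea, Fitm1, Fabp4 and Scd1. Cidea, a relative of Cidec best known from brown fat, was at 0 to 0.169 CPM in C57BL/6J on chow and 0.119 to 39.9 CPM on high-fat diet. Its lowest high-fat mouse, number 6 of the group, fell within the chow range. The 7 high-fat libraries held 1538 Cidea counts and the 6 chow libraries 5, while 129S1/SvImJ had 0 counts on chow and 1 on high-fat diet. Since Cidea was near 0 in the other 3 groups, its fitted fold change depends on the prior count and is not given. Fabp4, the fatty acid binding protein of fat cells and macrophages, had a chow mean of 3.76 ± 0.58 CPM (SD, n = 6) and rose to 11.3 ± 6.71 CPM (SD, n = 7). In 129S1/SvImJ the 4 genes of the list that rose were Agpat2, Lpl, Scd1 and Fitm1, of which Scd1 lost its call without mouse 2 on chow and Fitm1 held it in 18 of the 24 fits that each leave out 1 library. There Cidec had 0.34 on the log2 scale (edgeR adjusted p = 0.870).

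Of 10 regulators of fat-cell genes tested, 2 rose and none fell in C57BL/6J (median log2 fold change 0.15). Over all tested genes, 7.66% rose and 7.20% fell there. Srebf1, which encodes a regulator of fatty acid synthesis, rose by 1.40 ± 0.18 (SE, edgeR adjusted p = 2.44e-05). Pparg, the regulator of fat-cell formation, was at 6.57 to 19.3 CPM on chow and 16.1 to 52.6 CPM on high-fat diet, groups that overlapped, with a log2 fold change of 1.28 ± 0.29 (SE, edgeR adjusted p = 0.00434). Cebpa, a partner of Pparg in fat cells and a hepatocyte factor, had -0.21 (edgeR adjusted p = 0.0853) and Ppargc1a, a coactivator, -0.34 (edgeR adjusted p = 0.110). In 129S1/SvImJ Pparg had 0.17 (edgeR adjusted p = 0.849), Srebf1 rose by 0.67 (edgeR adjusted p = 0.0309) and Cebpa fell by 0.50 (edgeR adjusted p = 6.2e-04). The Srebf1 call in 129S1/SvImJ ended without the 2 libraries with fat-cell transcripts (edgeR adjusted p = 0.0596).

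**Figure D3:**
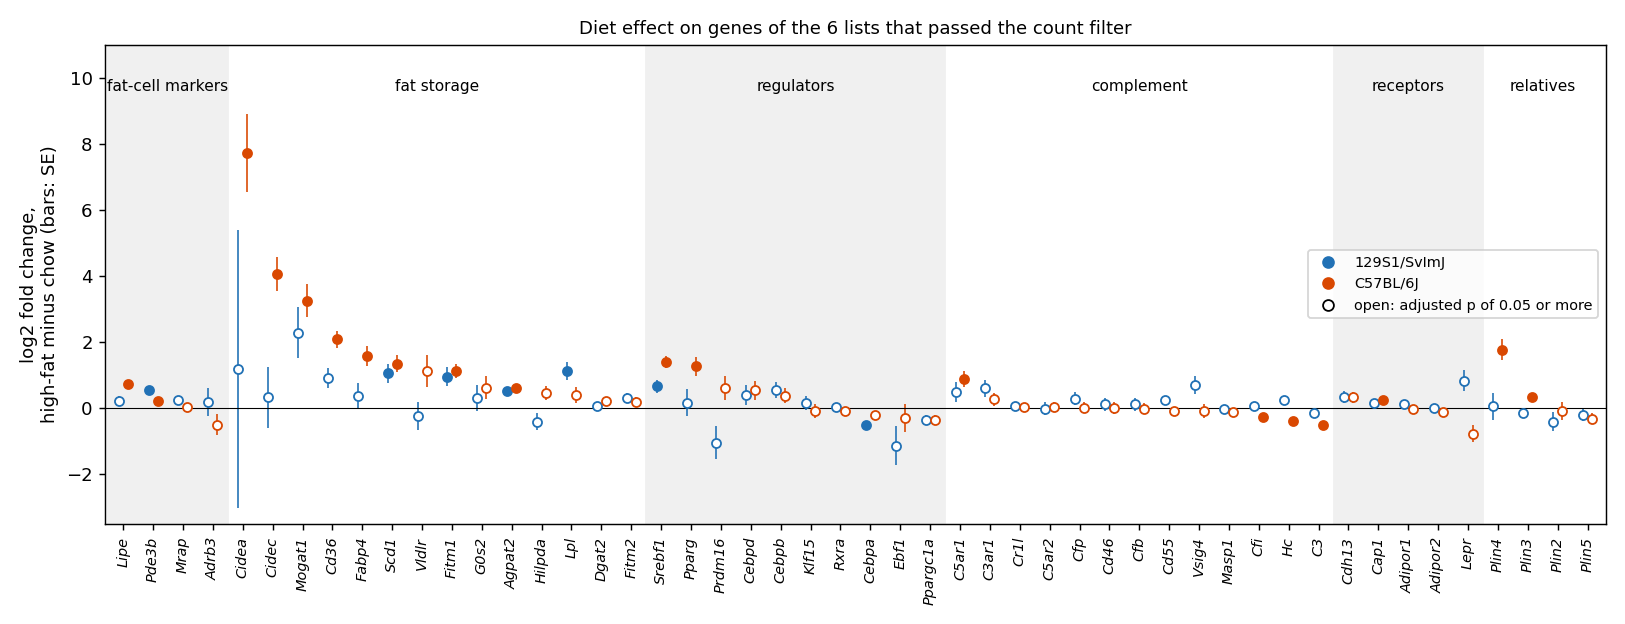
Log2 fold changes of high-fat diet against chow, with SE as bars, for the tested genes of the 6 lists in 129S1/SvImJ (blue) and C57BL/6J (orange); filled points were called at an adjusted p under 0.05 by edgeR. In C57BL/6J the filled points of the fat storage list lie between 0.62 for Agpat2 and 4.06 for Cidec, apart from Cidea, which was near 0 on chow and whose fitted value is no measure of size, and those of the complement list between -0.51 for C3 and 0.88 for C5ar1.

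Complement genes that work with adipsin were read in the same fits. Of 13 genes of the alternative pathway and its receptors, all tested, 1 rose and 3 fell in C57BL/6J (median log2 fold change -0.01). The shares over all tested genes were 7.66% higher and 7.20% lower. C3, the central protein of the pathway, had a chow mean of 8090 ± 1288 CPM (SD, n = 6) and fell to 5660 ± 1010 CPM (SD, n = 7), with overlap, a log2 fold change of -0.51 ± 0.11 (SE, edgeR adjusted p = 0.00183). Hc, which encodes C5, fell by 0.39 (edgeR adjusted p = 0.0189, and 0.066 without mouse 3 on chow), and Cfi, the protease that inactivates C3b, fell by 0.25 (edgeR adjusted p = 0.0232, and 0.061 without the 2 libraries with fat-cell transcripts). C5ar1, a receptor for the C5a fragment found on myeloid cells, rose by 0.88 ± 0.24 (SE, edgeR adjusted p = 0.0125). Cfb, the substrate of adipsin, named here for that role, had a chow mean of 7.50 ± 1.27 CPM (SD, n = 6) and a high-fat mean of 7.41 ± 1.14 CPM (SD, n = 7) in C57BL/6J; a second annotated gene overlaps it on the same strand, so its level is uncertain. Per kilobase of exon, the mean level in C57BL/6J on high-fat diet was 159.6 CPM for Cfd, 2.62 CPM for Cfb and 1101 CPM for C3. In 129S1/SvImJ neither edgeR nor DESeq2 called any of the 13, and 3 had an unadjusted p under 0.05.

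Receptors for adiponectin, leptin and resistin were measured in the same livers. Of 5 tested, only Cap1, known as a resistin receptor, rose in C57BL/6J (log2 fold change 0.24, edgeR adjusted p = 0.00467), and none fell. Among all tested genes, 7.66% rose and 7.20% fell in that strain. Adipor2, an adiponectin receptor, had a chow mean of 841.5 ± 108.1 CPM (SD, n = 6) and a high-fat mean of 773.7 ± 90.4 CPM (SD, n = 7) (edgeR adjusted p = 0.442). Lepr, the leptin receptor, had a log2 fold change of -0.76 ± 0.26 (SE, edgeR adjusted p = 0.0506) in C57BL/6J and 0.84 ± 0.31 (SE, edgeR adjusted p = 0.0928) in 129S1/SvImJ. DESeq2 called Lepr in both strains. Cdh13, which binds adiponectin, had 0.34 in C57BL/6J (edgeR adjusted p = 0.168). None of the 5 passed in 129S1/SvImJ with edgeR, while 3 had an unadjusted p under 0.05 and DESeq2 called Lepr.

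Relatives of the markers divided by gene. Of 7 relatives of perilipin 1 and resistin, 4 were tested, all perilipins, and 2 rose in C57BL/6J with none falling (median log2 fold change 0.14). Across all tested genes, 7.66% rose and 7.20% fell in that strain. Plin4, a perilipin most abundant in fat cells, was at 10.01 to 25.1 CPM on chow and 34.4 to 95.4 CPM on high-fat diet, without overlap, a log2 fold change of 1.78 ± 0.32 (SE, edgeR adjusted p = 6.96e-04). It was 1.62 without the 2 libraries with fat-cell transcripts. Plin3, a perilipin of many cell types, rose by 0.35 ± 0.09 (SE, edgeR adjusted p = 0.00876). Plin2, the main droplet coat of hepatocytes, had -0.07 (edgeR adjusted p = 0.897) and Plin5 -0.31 (edgeR adjusted p = 0.205). None of the 4 was called in 129S1/SvImJ by edgeR or DESeq2, and none had an unadjusted p under 0.05 there. The 3 resistin-like genes had at most 0.406 CPM in any library, in the case of Retnlg.

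The diet effect itself was compared between the strains for the 50 tested genes of the 6 lists. With edgeR the difference was called for none of them, while 19 had an unadjusted p under 0.05. DESeq2 called 7: Cd36, Cidec and Cidea (near 0 in 3 of the 4 groups) of the fat storage genes, Hc of complement, Lepr, Plin3 and Plin4. With edgeR the difference was -3.72 ± 1.15 for Cidec (SE, edgeR adjusted p = 0.134), -1.17 ± 0.39 for Cd36 (SE, edgeR adjusted p = 0.165) and 1.60 ± 0.41 for Lepr (SE, edgeR adjusted p = 0.0773).

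Among the 7 C57BL/6J mice on high-fat diet, Cfd and the fat storage genes did not rank the mice in the same order. Mouse 5, sixth in Cfd, was the highest of the 7 in Cidec (208.0 CPM), Cd36 (373.4 CPM), Fabp4 (24.9 CPM), Plin4 (95.4 CPM), Mogat1 (6.89 CPM) and Pparg (52.6 CPM). Mouse 6, the lowest in Cfd, was also the lowest in Cidea (0.119 CPM), Cidec (14.7 CPM), Cd36 (83.0 CPM), Plin4 (34.4 CPM) and Mogat1 (0.237 CPM). Mice 3 and 4 had 175.7 and 150.4 CPM of Cfd beside 37.3 and 24.2 CPM of Cidec and 5.28 and 1.52 CPM of Cidea. Mouse 1 was highest in Cfd (255.9 CPM), Cidea (39.9 CPM) and Lipe (62.9 CPM). Mouse 7 came next after it in Cfd (199.4 CPM), Cidea (30.3 CPM) and Lipe (56.4 CPM). In Cidec, Fabp4 and Pparg mouse 7 came next after mouse 5, while mouse 2 was above it in Cd36, Mogat1 and Plin4. With mouse 5, which held fat-cell transcripts, set aside, Cidea ordered the mice like Cfd except for mice 2 and 3. Mouse 2 had 21.4 CPM of Cidea and 165.9 CPM of Cfd, and mouse 3 had 5.28 and 175.7 CPM.

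**Figure D4:**
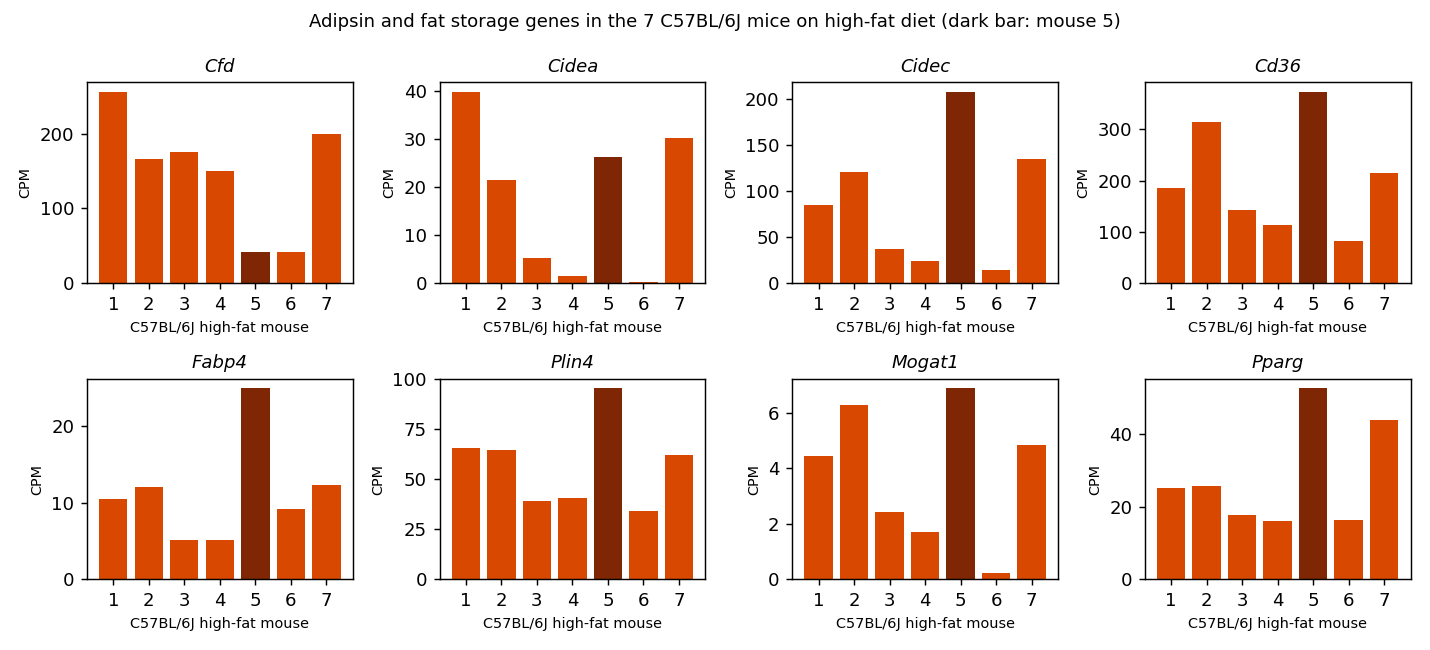
Levels in CPM of Cfd and 7 fat storage genes or regulators in each of the 7 C57BL/6J mice on high-fat diet, 1 bar per mouse on axes that start at 0, with mouse 5 in the darker colour. Mouse 5 has the tallest bar for Cidec, Cd36, Fabp4, Plin4, Mogat1 and Pparg, and 41.3 CPM of Cfd against 255.9 CPM in mouse 1.

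The genes most like Cfd were found by Spearman's rho of CPM over the 24 libraries, among 13596 tested genes with a mean of at least 1 CPM. Libraries of a group share strain and diet, so these values are given as a description. The 10 highest, from 0.861 to 0.886, were Raet1d, Casc4, 2810002D19Rik, Lrp12, Mup-ps16, Tpm2, Enpp6, Serinc2, Mcam and Ppp2r1b. All 10 were higher in mean in C57BL/6J on high-fat diet than on chow, but by far less than Cfd. Tpm2, a tropomyosin of muscle and of cells with stress fibres, went from a mean of 2.85 CPM on chow to 15.1 CPM on high-fat diet, and Lrp12 from 8.83 to 10.7 CPM. Raet1d and Mup-ps16 belong to families of near-identical copies, so their counts are uncertain. Cidea was 45th (0.830), Cidec 59th (0.817), Pparg 98th (0.802), Plin4 396th (0.724) and Lipe 503rd (0.703).

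Once the mean of each group was taken off log2(CPM + 0.5), the list of like genes was another one. The 5 highest by Pearson's r over the 24 libraries were Ube2d1 (0.741), Slc17a8 (0.655), Rrm2b (0.649), Stx17 (0.645) and Gmcl1 (0.643). By this measure Cidec had 0.229, Cidea 0.245, Pparg 0.121, Fabp4 0.009 and Plin4 -0.012, while Fitm1 (0.372), Scd1 (0.306) and Mogat1 (0.298) were higher. These 8 genes ranked from 486th, for Fitm1, to 7183rd, for Plin4, of the 13596 by this measure. Apart from mouse 1 on chow, no 129S1/SvImJ library held over 3 Cfd counts. The deviations of Cfd there lie near the floor, yet they enter r like all others, so a low r is hard to read.

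Cfd lies in a cluster of serine protease genes of neutrophils, and 8 annotated genes lie within 20 kb of it. Elane, neutrophil elastase, lies upstream with 2637 bases between the genes. It was at 0.097 to 0.202 CPM in C57BL/6J on chow and 0.268 to 1.12 CPM on high-fat diet. It held 11 and 48 counts in these groups and did not pass the count filter, and all its chow levels lie under the floor of 3 counts. Prtn3, proteinase 3, 7678 bases away, was at 0 to 2.43 CPM on chow and 0.358 to 1.90 CPM on high-fat diet (log2 fold change 0.38, edgeR adjusted p = 0.695). On the other side, Med16, a Mediator subunit on the opposite strand 2052 bases away, had 0.20 on the log2 scale (edgeR adjusted p = 0.217), and R3hdm4, 17396 bases away, rose by 0.20 (edgeR adjusted p = 0.0333). The other 4, Plppr3, Gm24019, Gm26602 and Gm19810, had at most 0.446 CPM in any C57BL/6J library. The highest level of any neighbour in C57BL/6J on high-fat diet was 52.4 CPM, for R3hdm4, in a group where Cfd averaged 147.1 CPM.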

How the data were processed

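RNA from 24 livers was depleted of ribosomal RNA and sequenced from libraries that keep strand, per the labels' protocols. The authors deposited raw gene counts, which were used as they stand; the tools in the submitters' processing notes are STAR 2.5.4b, Bowtie2 2.2.3, Trimmomatic 0.36 and DESeq2 1.26.0, on mm10, with no roles. Which annotation release and strand setting the counting used is not given in the sources used here, and genes were matched to GENCODE M21 (53582 of 53677 identifiers). Where reads were counted without strand, overlapping genes on opposite strands could not be told apart.

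The 5 genes, the gene lists, the tests and the rule for naming genes were chosen with earlier results of these data known. Counts were filtered by filterByExpr (14533 genes kept), scaled by TMM and fitted with robust quasi-likelihood models in edgeR 4.0.16 (R 4.3.3), with 1 mean per group over all 24 libraries and a prior count of 0.125. Tests were two-sided, in 3 comparisons: diet in each strain and the difference between strains. CPM are counts over the TMM-scaled library size, and a level per kilobase divides by the annotated exon bases. The SE of a fold change was taken from its F statistic. Named genes were the 4 with the smallest p in C57BL/6J of each of 6 lists, the 10 and 5 most like Cfd, and its neighbours within 20 kb; others are said to be named later. A gene of the complement list is not reported here, and the list's counts leave it out. The procedure was tested on simulated data.

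Each mouse is 1 library, and replicates differed beyond sampling noise in all 61 pairs within groups (chi-square over its degrees of freedom from 5.77 to 80.5). Alternatives were DESeq2 1.42.0, RLE size factors, no filter, a replicate block, leaving out each library, leaving out the 2 libraries with fat-cell transcripts and, chosen after seeing the data, the level of the small nuclear RNA 7SK as a covariate (2097 to 7258 CPM over the libraries).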

Additional observations from a re-analysis of the deposited data

Results flagged for a closer look

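Dixon's criterion was applied to 24 sets of values, each of the 5 genes and the summed markers in each of the 4 groups. In 13 of them a single mouse stood apart from the rest of its group. In 5 of the 13, that mouse held only 1 to 3 counts of the gene. In some sets no other mouse of the group held a count, so any count set its mouse apart. The summed sets also repeat the counts of their genes. The 13 are therefore given as a description and cannot be compared with a chance rate.

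In C57BL/6J on high-fat diet, mouse 5 stood apart with 1.23 CPM of Adipoq, 3.28 CPM of Lep, 1.56 CPM of Plin1, 0.246 CPM of Retn and 6.31 CPM of the 4 summed, but not in Cfd. In 129S1/SvImJ on chow, mouse 1 stood apart with 3.21 CPM of Cfd, 0.866 CPM of Adipoq, 0.124 CPM of Lep and 1.36 CPM of the 4 markers summed. In 129S1/SvImJ on high-fat diet, mouse 5 stood apart with 0.089 CPM of Lep, 0.177 CPM of Plin1, 0.266 CPM of Retn and 0.532 CPM summed, from 6 counts in all.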

How the results depend on the processing

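The mean Cfd and marker levels moved by less than 1 SD with total counts as library size or with medians. In some groups that SD was larger than the mean, and medians lay far from means. The summed markers in C57BL/6J on high-fat diet had a mean of 0.972 CPM and a median of 0.119 CPM. Cfd in 129S1/SvImJ on chow had 0.709 and 0.105 CPM. The Cfd ratio of C57BL/6J to 129S1/SvImJ on chow was 4.98 with means and 25.4 with medians. The 8 fat storage genes called higher in C57BL/6J were 8 to 10 over the other fits. They were 7 without Cidea, a check chosen after seeing the data. Mogat1, which also passed the filter on low counts only through the C57BL/6J mice on high-fat diet, was among the 7. The number of genes called for diet in C57BL/6J (2159) stayed within 1.5 times, from 1627 to 2502 when 1 library was left out. For diet in 129S1/SvImJ (1514) it ran from 937, without mouse 1 on chow, to 1671. The strain by diet interaction (43 genes) was unstable: it called 17 with the replicate number as a block, 2 without the 2 libraries with fat-cell transcripts, 121 with the 7SK level as a covariate, 292 with DESeq2 and 5 to 170 when 1 library was left out, the lowest without mouse 1 of 129S1/SvImJ on chow and the highest without mouse 4 of C57BL/6J on high-fat diet. The replicate numbers do not pair mice: over 11 same-numbered pairs of libraries the correlation of deviations ran from -0.166 to 0.256, and 2 were best with their own number. For the named genes, 3615 of 3764 values kept direction and call, 91 lost the call and 58 gained it, and none reversed. The cause of these shifts was not tested. At these depths a count of 0 in a library allows up to 3 counts, 0.223 to 0.467 CPM.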
